A study of Homo sapiens with 6 samples.

Results

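Processed pseudogenes of abundant transcripts are 40 gene symbols with counts in RNA sequencing of a human colorectal cancer cell line, compared here between 3 libraries labelled control siRNA and 3 labelled GLCC1 siRNA. They were chosen as the symbols made of LDHA, LDHB, GAPDH, ACTG1, ACTB, KRT8, KRT18, EEF1A1, HSP90AA or HSP90AB followed by P and a number. At least 10 read pairs summed over the 6 libraries were required. HSP90AA1 and HSP90AB1 were taken as the parents for the HSP90 names. The pattern matched 241 of the 56638 symbols in the files. Of these, 146 were without a count, 95 had at least 1, and 40 reached the limit. By family, 11 of 50 matching symbols were KRT8 pseudogenes, 8 of 38 EEF1A1, 8 of 67 KRT18, 7 of 58 GAPDH, 3 of 9 ACTG1, 2 of 10 ACTB and 1 of 6 LDHA. None of the 3 LDHB symbols had a count, and no HSP90 symbol matched, since 7 HSP90A symbols in the files carry the P after a number. KRT18P19, with 2, 1 and 0 counts in the control libraries and 4, 2 and 1 in the GLCC1 siRNA libraries, and KRT8P26, with 2, 2 and 2 and then 1, 0 and 3, were just inside the limit at 10 counts. GAPDHP60, with 0, 3 and 2 and then 1, 1 and 1, was just outside it at 8. Because total counts chose the pseudogenes, their levels are given as a description. The limit uses no comparison of the conditions, but the families were picked with earlier results of these data known.

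All libraries were of cells named SW480 in the labels, at the same range of passages, transfected either with a nonspecific siRNA or with siRNA against the long noncoding RNA GLCC1, which the labels call lncRNA-AF339830. For this sequencing the study's methods name DLD-1, another colorectal cancer line. Libraries were grouped by title, as the source name and genotype label also have it, but the name of each library carries the opposite siRNA, so every direction below would turn if those names were right. The study states in general terms that its replicates were collected separately, but the labels do not say so for these libraries, so the p-values measure the spread between them, which may be technical. The siRNA of both groups carries the number 1 in every genotype label.

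Gene counts per library ranged from 11948790, in GLCC1 siRNA replicate 2, to 19042516. In that library the share of read pairs on no annotated gene was 12.7%, whereas it was 9.82% to 11.2% in the other 5. It also stood apart from the other libraries of its group over all genes, with a chi-square per degree of freedom of 18.1 and 19.0 against them, whereas the other 4 pairs of libraries within a group had 1.93 to 4.16. Without it, 2 of the pseudogenes were higher and 5 lower, with GAPDHP1 lost, beside 2 and 6 with all libraries. No symbol in the files is GLCC1, and FARP1, inside which its locus lies, had 109, 110 and 113 counts scaled to library size (CPM) in the control libraries and 63.2, 65.6 and 65.4 in the GLCC1 siRNA libraries (log2 fold change -0.77, SE 0.08, adjusted p = 9.2e-06 from edgeR). Of 8 markers of colorectal epithelium, 7 had a mean of at least 1 CPM, and their sum was 1153 to 1208 CPM in the control libraries and 967 to 1076 in the GLCC1 siRNA libraries. The summed levels of the markers of other cells were 2.81 to 4.10 and 3.26 to 5.37 CPM for 4 leukocyte genes, 11.8 to 15.0 and 6.68 to 7.999 for 4 fibroblast genes, 0.542 to 1.03 and 0.318 to 1.40 for 2 endothelial genes, and 0.716 to 1.08 and 0.318 to 0.730 for 2 hepatocyte genes. In those 4 lists, 1, 2, 1 and 0 genes had no count, and the part of any of these differences in the results below was not tested.

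A processed pseudogene arises when a messenger RNA is copied into DNA by reverse transcriptase and inserted elsewhere in the genome, so it resembles the spliced transcript, lacks the introns of its parent gene and usually lacks its promoter. Abundant transcripts have left many such copies. A read from a parent transcript can therefore match its pseudogenes about as well as its own gene, and counts on a pseudogene and on its parent are not fully separable, most of all for recent copies that have gathered few differences. The parents here are LDHA and LDHB, the subunits of the enzyme that interconverts pyruvate and lactate, GAPDH of glycolysis, the cytoplasmic actins ACTB and ACTG1, KRT8 and KRT18, the keratin pair of simple epithelia, EEF1A1, the factor that brings aminoacyl-tRNA to the ribosome, and the chaperones HSP90AA1 and HSP90AB1.

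Sequence was read from the GRCh37 genome, the build of the files (hg19), at the positions of GENCODE 44 mapped to that build, in which 39 of the 40 pseudogenes were found. Each was aligned with the spliced canonical transcript of its parent, and for all 39 the parent in the name was the best match among the parents. Identity with the parent over the aligned bases was between 81.74% and 99.71%. The study sequenced 150 bases from each end of a fragment, so stretches of 150 bases were examined for perfect identity. EEF1A1P5 differed from EEF1A1 at 4 of 1389 aligned bases, and 51.6% of its 150-base windows were identical to the parent transcript. EEF1A1P6 differed at 7 of 1384 aligned bases, with 39.5% of windows identical. None of the other 37 had an identical window of that length, but their longest identical runs reached from 24 bases, as in GAPDHP22, to 147 in EEF1A1P19. Lack of such a window does not show how the mapping divided the reads, which was not tested.

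The first 150 coding bases of EEF1A1 are shown with the same stretch of the 4 EEF1A1 pseudogenes with the most counts, because the number of differences in such a stretch is what sets a read of one apart from a read of another. Capitals mark the bases that differ from the parent, and each line reads 5′ to 3′ in the sense of the parent transcript. The stretches lie at chr9:135894873-135895022 on the plus strand for EEF1A1P5, and on the minus strand at chr7:22551469-22551618 for EEF1A1P6, chr5:43496407-43496556 for EEF1A1P19 and chr5:14653286-14653435 for EEF1A1P13.
EEF1A1: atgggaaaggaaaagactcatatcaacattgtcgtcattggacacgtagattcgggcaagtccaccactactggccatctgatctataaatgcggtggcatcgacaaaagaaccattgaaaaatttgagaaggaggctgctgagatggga
EEF1A1P5: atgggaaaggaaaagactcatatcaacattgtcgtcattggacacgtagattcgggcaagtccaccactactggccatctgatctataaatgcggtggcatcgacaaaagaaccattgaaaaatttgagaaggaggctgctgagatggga
EEF1A1P6: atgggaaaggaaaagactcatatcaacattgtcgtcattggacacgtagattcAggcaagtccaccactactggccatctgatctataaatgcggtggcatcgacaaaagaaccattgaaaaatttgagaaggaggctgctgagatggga
EEF1A1P19: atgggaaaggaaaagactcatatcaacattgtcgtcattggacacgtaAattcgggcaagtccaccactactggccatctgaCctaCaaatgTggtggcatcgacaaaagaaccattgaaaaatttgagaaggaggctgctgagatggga
EEF1A1P13: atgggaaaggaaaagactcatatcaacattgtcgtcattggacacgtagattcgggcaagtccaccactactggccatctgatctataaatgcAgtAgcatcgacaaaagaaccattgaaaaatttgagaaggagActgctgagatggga
EEF1A1P5 has no difference here, EEF1A1P6 has 1, EEF1A1P19 has 4 and EEF1A1P13 has 3. None of the 8 positions that differ in any of them carries the same base in more than 1.

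A shorter stretch, coding bases 271 to 320 of EEF1A1, shows a difference that both of the closest copies have, at coding position 294. It lies at chr9:135895143-135895192 (plus strand) in EEF1A1P5 and at chr7:22551299-22551348 (minus strand) in EEF1A1P6.
EEF1A1: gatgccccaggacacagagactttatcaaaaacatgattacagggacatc
EEF1A1P5: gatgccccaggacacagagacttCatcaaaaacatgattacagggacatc
EEF1A1P6: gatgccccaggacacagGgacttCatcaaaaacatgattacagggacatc
The remaining differences of EEF1A1P5 are at coding positions 720, 933 and 1094, and those of EEF1A1P6 at 54, 288, 719, 975, 1014 and 1063.

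The LDHA and GAPDH pseudogenes with the most counts are shown beside their parents. LDHAP4 is at chr9:14922182-14922331 on the minus strand, over coding bases 2 to 151 of LDHA, and differs at 6 of them. GAPDHP1 is at chrX:39647241-39647390 on the minus strand, over coding bases 1 to 150 of GAPDH, and differs at 4.
LDHA: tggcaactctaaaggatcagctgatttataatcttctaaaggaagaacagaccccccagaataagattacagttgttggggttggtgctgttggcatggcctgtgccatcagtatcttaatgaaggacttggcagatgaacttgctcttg
LDHAP4: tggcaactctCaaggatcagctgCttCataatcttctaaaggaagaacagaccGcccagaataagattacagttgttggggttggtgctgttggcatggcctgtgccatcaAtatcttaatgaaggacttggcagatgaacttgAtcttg
GAPDH: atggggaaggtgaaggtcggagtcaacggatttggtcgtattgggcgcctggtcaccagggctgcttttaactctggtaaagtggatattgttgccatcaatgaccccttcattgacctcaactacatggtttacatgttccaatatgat
GAPDHP1: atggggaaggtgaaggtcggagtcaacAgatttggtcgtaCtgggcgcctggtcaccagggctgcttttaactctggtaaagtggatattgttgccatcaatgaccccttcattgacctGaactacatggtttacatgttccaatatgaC

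The counts were very uneven over the pseudogenes. The 40 took 666896 counts in the 6 libraries, of which EEF1A1 pseudogenes took 93.8%, KRT8 pseudogenes 5.10% and LDHAP4 0.957%. A total of at least 100 counts was reached by 13 of the 40, and 23 had fewer than 50. All 40 passed the filter of the study, 5 counts summed over a condition in at least 1 condition, and 3 of them did so with fewer than 5 in the other condition. The pseudogenes took 0.668% to 0.703% of the gene counts in the control libraries and 0.597% to 0.715% in the GLCC1 siRNA libraries. Without EEF1A1P5 these shares were 0.0796% to 0.0833% and 0.0383% to 0.0454%, and did not overlap.

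The conditions were compared by the quasi-likelihood test of edgeR over 23074 genes, with a call at a Benjamini-Hochberg adjusted p under 0.05 and positive log2 fold changes for genes higher in the GLCC1 siRNA libraries. Of the 40 pseudogenes, 6 were lower in the GLCC1 siRNA libraries (KRT8P3, KRT8P10, KRT8P32, KRT8P45, LDHAP4 and GAPDHP1), 2 were higher (KRT8P12 and EEF1A1P19) and 32 were not called. Among all genes tested, 31.6% were called, 14.9% as higher and 16.7% as lower. The 8 called were among the 13 pseudogenes with a mean of at least 1 CPM, whereas of all genes at that level 20.3% were higher and 24.8% lower. None of the 27 pseudogenes under 1 CPM was called by edgeR, in which EEF1A1P12 alone passed 0.05 before adjustment (adjusted p = 0.062). Among all genes under 1 CPM, 7.07% were called. DESeq2 gave an adjusted p for 11 of the 27 and called none, and none of the 27 passed 0.05 in it before adjustment. The median log2 fold change was -0.10 over the 40, -0.35 over the 13 and 0.25 over the 27, beside 0.03 over all genes tested. When counts were scaled by library totals alone, the median over the 40 was 0.02 and that over all genes 0.15. As a range of other processed pseudogenes, 144 of ribosomal protein genes had 4 higher and 29 lower with a median of -0.19, and 81 of other abundant transcripts had 13 higher and 6 lower with a median of 0.19.

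**Figure D1:**
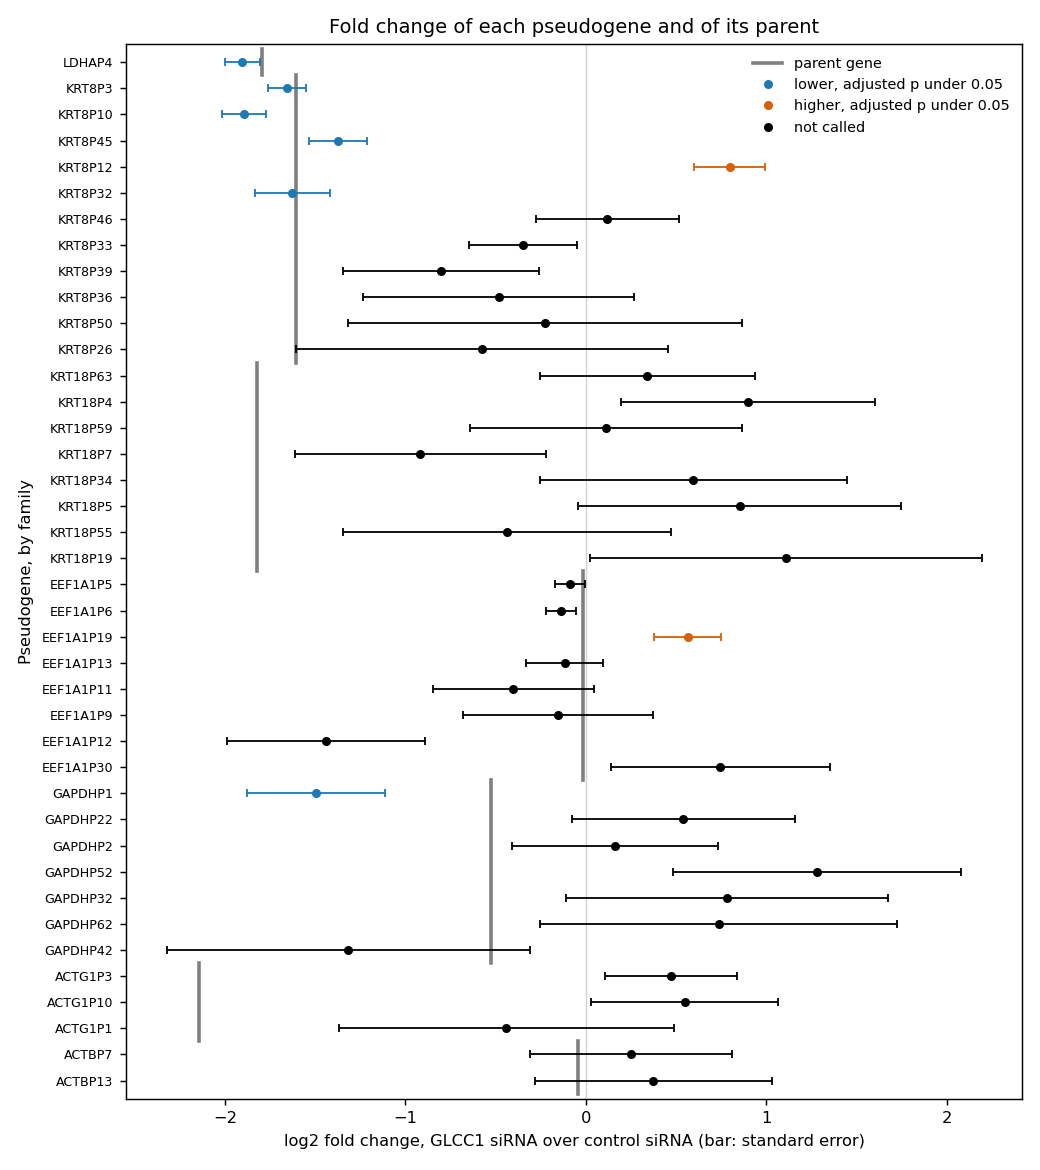
Log2 fold change of each of the 40 pseudogenes (points, with standard errors as bars) in GLCC1 siRNA over control siRNA libraries, grouped by family, with the parent's log2 fold change as a grey line. The 6 pseudogenes called lower are in blue and the 2 called higher in orange, and the KRT18 and ACTG1 pseudogenes lie to the right of their parents' lines.

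Of the 10 parent genes, 8 were lower in the GLCC1 siRNA libraries and none was higher. This held under edgeR, DESeq2 and each other setting that kept the titles' groups, except that the call of LDHB was lost in some. All 10 parents were above 1 CPM, a level at which 24.8% of everything tested was called lower and 20.3% higher. The families were chosen after earlier results were known, so 8 of 10 describes chosen genes only. The largest fall was that of ACTG1 (log2 fold change -2.14, SE 0.11, adjusted p = 2.7e-08 from edgeR). KRT18 and LDHA followed with -1.82 (SE 0.09) and -1.79 (SE 0.08), and KRT8 with -1.61 (SE 0.10). Smaller falls were those of HSP90AA1 with -0.77, HSP90AB1 with -0.61, GAPDH with -0.52 and LDHB with -0.30. ACTB (-0.04, SE 0.11, adjusted p = 0.79) and EEF1A1 (-0.01, SE 0.07, adjusted p = 0.90) were not called. The call of LDHB was lost with library totals as the only normalization (adjusted p = 0.080) and without control siRNA replicate 3 (adjusted p = 0.051).

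EEF1A1P5 had the most counts of any pseudogene examined, with 88318, 112126 and 108482 in the control libraries and 113111, 66770 and 115779 in the GLCC1 siRNA libraries. It ranked 4 among all symbols in each control library and 3 to 4 in the GLCC1 siRNA libraries, while EEF1A1, one of the most abundant messenger RNAs of human cells, ranked 153 to 163 and 131 to 141. Per kilobase, with the pseudogene's length and the canonical transcript's length as divisors, the mean level was 4374 CPM for EEF1A1P5 and 170 CPM for EEF1A1. The pseudogene thus carried more counts than its parent in every library. Scaled to library size it had 6055, 6179 and 6533 CPM in the control libraries and 5897, 5311 and 6476 in the GLCC1 siRNA libraries. The groups overlapped, and the log2 fold change was -0.09 (SE 0.08, adjusted p = 0.46 from edgeR).

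The parent EEF1A1 had 589, 588 and 620 CPM in the control libraries and 572, 593 and 615 in the GLCC1 siRNA libraries. Per 1000 counts of EEF1A1, the count of EEF1A1P5 was 10439 ± 145 (SD, n = 3) in control and 9930 ± 851 (SD, n = 3) in GLCC1 siRNA libraries, a log2 difference of -0.08. The exact permutation test over the libraries, two-sided and with a smallest possible p of 0.1, gave p = 0.6. EEF1A1P5 and EEF1A1 share so much sequence that the division of counts between these symbols is uncertain, and the part of the mapping in it was not tested. Between 10.8% and 12.4% of the read pairs in the files of each library were set aside by the counting because they did not align uniquely.

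EEF1A1P6, the next closest copy, had 206, 211 and 212 CPM in the control libraries and 202, 171 and 198 in the GLCC1 siRNA libraries. All 3 control values were above the 3 others, but the fall was not called (log2 fold change -0.14, SE 0.08, adjusted p = 0.24 from edgeR). Relative to EEF1A1 the groups overlapped, with 350 ± 8.37 (SD) and 321 ± 32.5 (SD) counts per 1000 parent counts and an exact permutation p = 0.3. EEF1A1P6 lies inside STEAP1B, which had no count in any library.

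EEF1A1P19 was the EEF1A1 pseudogene that rose, with 33, 52 and 51 counts in the control libraries and 74, 56 and 71 in the GLCC1 siRNA libraries. In CPM these were 2.26, 2.87 and 3.07 and then 3.86, 4.45 and 3.97, without overlap (log2 fold change 0.57, SE 0.19, adjusted p = 0.033 from edgeR). The call was close to the limit. It was lost under DESeq2 (adjusted p = 0.078) and without control siRNA replicate 1, 2 or 3 (adjusted p = 0.14, 0.079 and 0.054) or GLCC1 siRNA replicate 1 or 3 (adjusted p = 0.051 and 0.058). EEF1A1P19 lies in an intron of C5orf34 on the same strand, so reads of that gene's unspliced transcript cannot be told apart by symbol from reads of the pseudogene. The log2 fold change of C5orf34 was 0.57 (adjusted p = 0.010 from edgeR), and the part of its reads in the counts of EEF1A1P19 was not tested. EEF1A1P13, with 48, 44 and 57 counts and then 57, 28 and 55, had overlapping groups (log2 fold change -0.12, SE 0.21, adjusted p = 0.71 from edgeR).

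The other 4 EEF1A1 pseudogenes were under 1 CPM. EEF1A1P12 had 5, 10 and 10 counts in the control libraries and 3, 2 and 4 in the GLCC1 siRNA libraries, the largest difference among them (log2 fold change -1.44, SE 0.55), without overlap in CPM. This gene is named after its values were seen. Over the 8 EEF1A1 pseudogenes the median log2 fold change was -0.13, and their summed counts per 1000 counts of EEF1A1 differed by -0.08 on the log2 scale (exact permutation p = 0.5), or by -0.12 without EEF1A1P5 (p = 0.3).

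Of the 11 KRT8 pseudogenes, 4 were lower and 1 was higher, beside 16.7% and 14.9% of all genes tested. KRT8 pseudogenes made up 7 of the 13 with at least 100 counts, among which all calls lay. KRT8P3 had 4846, 6227 and 5906 counts in the control libraries and 1941, 1222 and 2297 in the GLCC1 siRNA libraries. Its CPM were 332, 343 and 356 and then 101, 97.2 and 128, so that every GLCC1 siRNA library was below every control library. The level was 3.15-fold lower (log2 fold change -1.66, SE 0.10, adjusted p = 1.4e-07 from edgeR), beside 3.04-fold for KRT8. In relation to KRT8 it had 96.0 ± 4.40 (SD) counts per 1000 in control and 92.7 ± 8.79 (SD) in GLCC1 siRNA libraries, which overlapped (exact permutation p = 0.6). KRT8P3 lies within ASPH on the opposite strand, whose log2 fold change was 0.19 (SE 0.08, adjusted p = 0.10).

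KRT8P10 had 143, 163 and 146 CPM in the control libraries and 36.2, 36.1 and 49.2 in the GLCC1 siRNA libraries, again without overlap. It was 3.72-fold lower (log2 fold change -1.90, SE 0.12, adjusted p = 1.6e-07 from edgeR). Its counts per 1000 counts of KRT8 were 42.1, 43.3 and 41.0 in the control libraries and 29.6, 35.9 and 37.8 in the GLCC1 siRNA libraries. All control ratios were above all others, a log2 difference of -0.30 with the smallest p that 3 against 3 libraries allow in an exact permutation test (p = 0.1).

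KRT8P45 fell 2.59-fold, from 14.3, 14.3 and 13.5 CPM to 4.48, 7.16 and 4.92 CPM (log2 fold change -1.37, SE 0.16, adjusted p = 2.6e-05 from edgeR). In GLCC1 siRNA replicate 2 its ratio to KRT8 was 7.12 per 1000, whereas the other 5 libraries had 3.66 to 4.18. KRT8P32 fell 3.09-fold, from 3.63, 3.80 and 3.61 CPM to 1.20, 1.19 and 1.18 CPM (log2 fold change -1.63, SE 0.21, adjusted p = 4.8e-05 from edgeR). Per 1000 counts of KRT8 its values were 1.03 ± 0.0323 (SD) and 1.02 ± 0.147 (SD), which overlapped (exact permutation p = 1.0). The identity of these 4 with KRT8 was 97.1% for KRT8P3, 95.57% for KRT8P45, 92.36% for KRT8P32 and 91.78% for KRT8P10.

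KRT8P12 went the other way, with 65, 85 and 47 counts in the control libraries and 151, 74 and 123 in the GLCC1 siRNA libraries. In CPM it had 4.46, 4.68 and 2.83 and then 7.87, 5.89 and 6.88, without overlap. The rise was 1.74-fold (log2 fold change 0.80, SE 0.20, adjusted p = 0.0067 from edgeR). Relative to KRT8, which fell, the count per 1000 went from 1.11 ± 0.281 (SD) to 5.86 ± 0.568 (SD), a 5.35-fold difference with an exact permutation p = 0.1. It is annotated as a transcribed processed pseudogene, as LDHAP4 is, and its identity with KRT8 was 90.72%.

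KRT8P46 and KRT8P33, named after their values were seen, had about 1 CPM each and were not called. KRT8P46 had 9, 27 and 15 counts in the control libraries and 32, 10 and 14 in the GLCC1 siRNA libraries (log2 fold change 0.12, SE 0.40), and KRT8P33 had 19, 20 and 20 and then 22, 9 and 16 (-0.35, SE 0.30). In CPM both overlapped, whereas in counts per 1000 of KRT8 neither did, with 0.276 against 0.918 for KRT8P46 and 0.337 against 0.779 for KRT8P33 (exact permutation p = 0.1 for each). KRT8 itself fell 3.04-fold, so a pseudogene that did not change would also rise in this ratio. The separation is therefore no evidence of a change in KRT8P46 or KRT8P33. KRT8P46 lies inside MANBA and KRT8P33 inside CEP120, both on the same strand as the pseudogene, and these genes had log2 fold changes of 0.14 (adjusted p = 0.26) and 0.37 (adjusted p = 0.0090). The sum over the 11 KRT8 pseudogenes, in which KRT8P3 and KRT8P10 have most counts, differed by -1.66 in log2 CPM and by -0.04 relative to KRT8 (exact permutation p = 1.0).

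**Figure D2:**
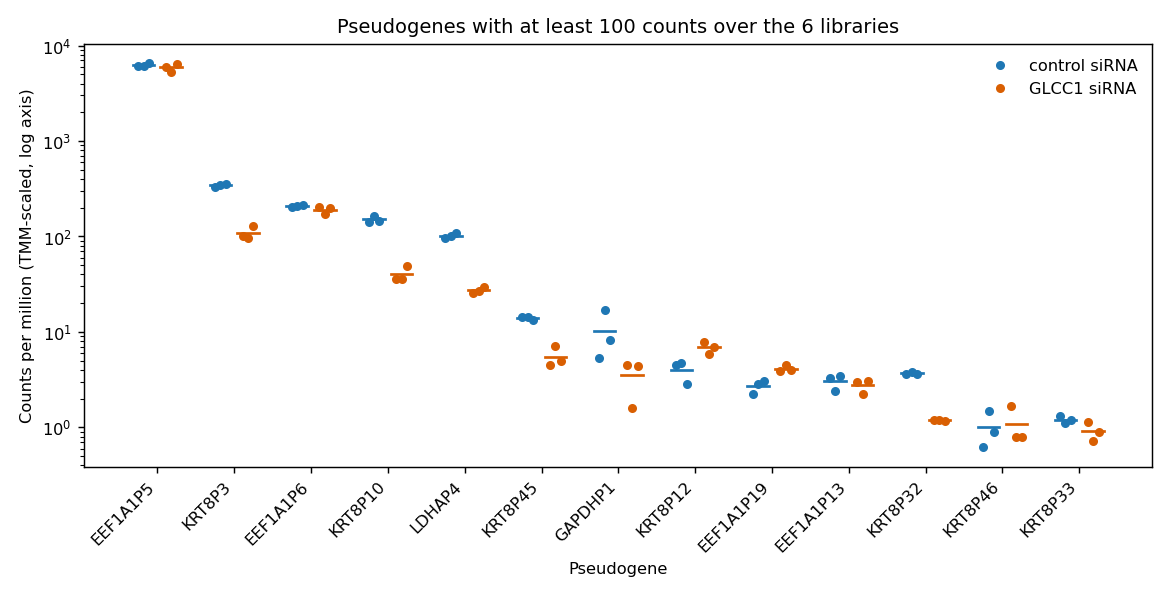
CPM, scaled with TMM factors (log axis), of the 13 pseudogenes with at least 100 counts in all, with 3 control siRNA libraries in blue and 3 GLCC1 siRNA libraries in orange as points and the group means as bars. KRT8P3, KRT8P10, LDHAP4, KRT8P45, KRT8P32, GAPDHP1 and EEF1A1P6 are lower in every GLCC1 siRNA library, though EEF1A1P6 was not called. KRT8P12 and EEF1A1P19 are higher in every GLCC1 siRNA library.

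LDHAP4, the LDHA pseudogene with counts to compare, had 1394, 1850 and 1790 counts in the control libraries and 491, 335 and 525 in the GLCC1 siRNA libraries. Its CPM were 95.6, 102 and 108 and then 25.6, 26.6 and 29.4, without overlap. It was 3.74-fold lower (log2 fold change -1.90, SE 0.10, adjusted p = 2.7e-08 from edgeR), beside 3.46-fold for LDHA. Its counts per 1000 of LDHA were 34.6 ± 1.85 (SD) and 32.0 ± 1.29 (SD) and overlapped (log2 difference -0.11, exact permutation p = 0.3). The identity of LDHAP4 with LDHA was 95.79%, with a longest identical run of 107 bases. LDHAP4 lies within an annotated long noncoding RNA gene on the same strand, with an exon of that gene over it. The part of that gene's reads in the counts was not tested.

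GAPDHP1 had 77, 308 and 135 counts in the control libraries and 86, 20 and 79 in the GLCC1 siRNA libraries, the widest spread within groups, relative to the mean, among the 13 pseudogenes above. Its CPM were 5.28, 16.97 and 8.13 and then 4.48, 1.59 and 4.42, separated by less than 1 CPM at the nearest pair of libraries. The log2 fold change was -1.49 (SE 0.38, adjusted p = 0.0088 from edgeR). Without control siRNA replicate 2, the library with 308 counts, it was -0.89 and not called (adjusted p = 0.073), nor was it called without GLCC1 siRNA replicate 2 (adjusted p = 0.26), under DESeq2 (adjusted p = 0.0504) or when 1 count in any library sufficed (adjusted p = 0.23). Relative to GAPDH the groups overlapped (exact permutation p = 0.3).

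The other 6 GAPDH pseudogenes were not called. GAPDHP22 had 5, 7 and 8 counts in the control libraries and 4, 17 and 7 in the GLCC1 siRNA libraries, so its log2 fold change of 0.54 was -0.43 without the library with 17 counts. GAPDHP2 had 2, 6 and 9 and then 5, 5 and 9, and GAPDHP52 had 0, 4 and 2 and then 6, 4 and 5. The median log2 fold change of the 7 GAPDH pseudogenes was 0.54.

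KRT18 and ACTG1 fell while no pseudogene of either was called. The 8 KRT18 pseudogenes had 23, 29 and 23 counts together in the control libraries and 31, 32 and 27 in the GLCC1 siRNA libraries. Their summed CPM were 1.58, 1.60 and 1.39 and then 1.62, 2.55 and 1.51, which overlapped, with a log2 difference of 0.28 (exact permutation p = 0.4). Per 1000 counts of KRT18 the sum was 3.73, 3.72 and 3.33 and then 12.7, 24.0 and 12.1, without overlap (log2 difference 2.10, exact permutation p = 0.1). Most of that difference is the fall of KRT18 itself (log2 fold change -1.82), so it is no evidence of a change in the pseudogenes.

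The most counted of them, KRT18P63, had 2, 9 and 6 counts in the control libraries and 4, 9 and 8 in the GLCC1 siRNA libraries, with a log2 fold change of 0.34 (SE 0.59). KRT18P59 had 0.11 (SE 0.75), KRT18P4 0.90 (SE 0.70) and KRT18P7 -0.92 (SE 0.69). The standard errors of the 8 were between 0.59 and 1.09.

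The 3 ACTG1 pseudogenes together had 17, 20 and 23 counts in the control libraries and 28, 22 and 30 in the GLCC1 siRNA libraries. In CPM this was 1.17, 1.10 and 1.39 and then 1.46, 1.75 and 1.68, a log2 difference of 0.42 without overlap (exact permutation p = 0.1). Per 1000 counts of ACTG1 it was 0.568, 0.430 and 0.618 and then 2.71, 3.95 and 2.94 (log2 difference 2.56, exact permutation p = 0.1). Here too most of the difference is the fall of the parent (log2 fold change -2.14). ACTG1P3 had 10, 11 and 10 counts and then 17, 7 and 20 (log2 fold change 0.47, SE 0.36), while ACTG1P10 had 5, 7 and 9 and then 7, 15 and 8 (0.55, SE 0.52). ACTG1P1 had a log2 fold change of -0.44 (SE 0.93), with 14 counts in all.

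Both ACTB pseudogenes, ACTBP7 with 7, 5 and 4 counts and then 4, 7 and 8, and ACTBP13 with 3, 5 and 2 and then 4, 4 and 5, had overlapping groups. Their log2 fold changes were 0.25 (SE 0.56) and 0.37 (SE 0.66), and ACTB was not called.

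**Figure D3:**
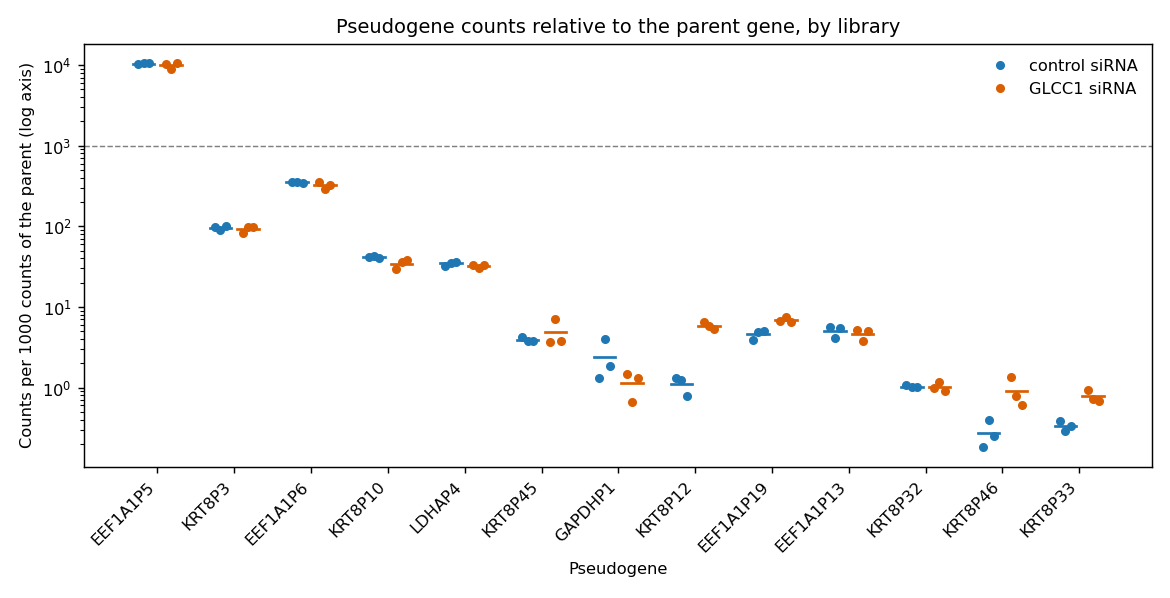
Counts of each of the 13 pseudogenes with at least 100 counts per 1000 counts of its parent gene (log axis), by library, with control siRNA in blue and GLCC1 siRNA in orange and group means as bars. The dashed line marks equal counts, above which only EEF1A1P5 lies, and the groups are apart for KRT8P12, KRT8P46, KRT8P33, KRT8P10 and EEF1A1P19. KRT8 fell, so ratios to it can rise where the pseudogene does not change.

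Over the 13 with at least 100 counts, the log2 fold changes of pseudogene and parent had a Pearson r of 0.46 and a Spearman rho of 0.53, and 10 of 13 had the same sign. Over the 27 with fewer counts these were -0.05 and -0.11, and 11 of 27 had the same sign. Over all 40 they were 0.10 and -0.03, with 21 of 40. The fold change of EEF1A1 was near 0 and its sign turned under other settings, among them library totals (0.11), so the signs shared with it carry little. Without the EEF1A1 family r was -0.11 and rho 0.37 over the 9 left with at least 100 counts, of which 7 had the parent's sign. These values are a description across genes, since pseudogenes of a family share the parent's value and all share the libraries.

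Pseudogenes with about as many mismatches to their parent differed in their change relative to it. KRT8P10 and KRT8P12 had 12.3 and 13.9 mismatches to KRT8 per 150 aligned bases, and the first fell with KRT8 while the second rose. They were less alike in other measures, with 5 and 71 gap bases and longest identical runs of 101 and 53 bases. KRT8P32, with 11.5, differed by 0.01 on the log2 scale. KRT8P33, with 6.22 mismatches, and KRT8P45, with 6.64, differed by 1.22 and 0.24. They had 30 and 7 gap bases, and KRT8P33 itself was not called while KRT8 fell. The part of likeness in these differences was not tested.

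Position in other genes was common among the pseudogenes. Of the 39 located, 23 overlapped another annotated gene, and 19 lay inside a protein-coding gene, 12 of them on its strand and 3 under one of its exons. For 17 of the 40 the surrounding protein-coding gene, on either strand, was tested, and pseudogene and host had the same sign in 7 of 17. Only 4 of these pseudogenes had at least 100 counts, so many of the signs are uncertain. ACTG1P3 is inside PSMF1, a proteasome inhibitor gene, which fell (log2 fold change -0.35, adjusted p = 0.0045 from edgeR) while ACTG1P3 had 0.47 (SE 0.36). EEF1A1P19 and its host C5orf34, on the same strand, both had 0.57. Whether the counting used strand is not given in the sources used here, and the part of host reads in the counts of these pseudogenes was not tested. KRT8 and KRT18 themselves lie head to head on chromosome 12 with overlapping annotation.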

How the data were processed

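The authors mapped paired-end reads of 150 bases to hg19 with TopHat 2.0.11 and a GRCh37 transcript index and counted read pairs per gene with HTSeq in union mode. They deposited the raw counts of each library as whole numbers, without normalization or filter, and libraries were made with a TruSeq kit. HTSeq's tallies of pairs given to no gene were kept out of library sizes.

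Genes with fewer than 5 counts in both conditions were removed. Counts were scaled with TMM factors (0.950 to 1.05) and compared by the robust quasi-likelihood test of edgeR 4.0.16 in R 4.3.3, with Benjamini-Hochberg adjustment. Ratios to the parent were taken per library, as log2 of counts plus 0.5, and compared by exact two-sided permutation. Pairs of libraries of a group differed by more than sampling noise (chi-square per degree of freedom 1.93 to 4.16, and 18.1 and 19.0 for the pairs with GLCC1 siRNA replicate 2). Local alignments (match 2, mismatch -3, gap opening -6, extension -2) were made with Biopython 1.88 to GENCODE 44 transcripts on GRCh37. The procedures were tested on simulated data. Alternatives were DESeq2 1.42.0, its size factors, library totals, filters of 1 count in any or 10 in every library, a minimum of 50 counts, a pseudocount of 1, the replicate block, the library names' conditions and each library left out.

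Genes named are the parents, the 4 pseudogenes of each family with the highest mean, up to 5 with the largest called rise or fall, those at the limit of 10 counts and genes around them. KRT8P46, KRT8P33 and EEF1A1P12 fall outside this rule. The pseudogenes and lists were chosen with earlier results of these data known. ACTBP13 was not matched to the annotation. Fold changes (log2) had a standard error of 0.08 for EEF1A1P5, with 604586 counts, and 1.09 for KRT18P19, with 10. Sequences of the KRT8 family are not reported here.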

Additional observations from a re-analysis of the deposited data

How the results depend on the processing

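Of 704 comparisons of 71 results with an alternative, 653 were counted as unchanged. For fold changes this meant the same direction and side of the threshold, or direction alone where DESeq2 gave no adjusted p. Ratios to the parent and family sums needed only the same direction. The median and the correlation had to stay within the spread. Numbers of called genes had only to stay close, as with 6 pseudogenes called by DESeq2 in place of 8. With DESeq2 1 pseudogene was higher in place of 2, since EEF1A1P19 was lost, and GAPDHP1 was lost among the lower. With each library left out in turn 1 to 2 were higher and 5 to 6 lower. With the conditions of the library names 6 were higher and 2 lower, which turns every direction. Restriction to genes with at least 10 counts in every library moved the median log2 fold change of the pseudogenes to -1.33 and the correlation with parents to 0.60, and it tests fewer of them. Most of those left are KRT8 or EEF1A1 pseudogenes that share the parent's value, so this correlation contrasts few parents. Without the EEF1A1 family, r was -0.11 over the 9 with at least 100 counts. With library totals as the only normalization, which moves the median of all genes from 0.03 to 0.15, the uncalled log2 fold changes of ACTB, EEF1A1, EEF1A1P13 and EEF1A1P5 turned to 0.078, 0.11, 0.0040 and 0.036, and the median of the 40 pseudogenes turned to 0.02. That of EEF1A1 was 0.025 with 10 counts in every library.

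With single libraries left out, some log2 fold changes that were not called crossed 0. The ranges were -0.11 to 0.086 for ACTB, -0.065 to 0.87 for ACTG1P10, -0.038 to 0.017 for EEF1A1, -0.27 to 0.0027 for EEF1A1P13, -0.17 to 0.66 for GAPDHP2, -0.43 to 1.01 for GAPDHP22, -0.38 to 0.61 for KRT18P59 and -0.073 to 0.76 for KRT18P63. For the log2 difference of the ratio to the parent they were -0.14 to 0.74 for ACTBP7, -0.27 to 0.017 for EEF1A1P13, -0.057 to 1.40 for GAPDHP22, -0.10 to 0.026 for KRT8P3, -0.11 to 0.095 for KRT8P32 and -0.068 to 0.41 for KRT8P45. For family sums they were -0.0020 to 0.73 for ACTB and -0.086 to 0.036 for KRT8. The cause of these changes was not tested.

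The deviations of same-numbered libraries correlated at -0.155, -0.288 and -0.00809, and those of other pairs at -0.239 to 0.252. With 3 libraries per group these values depend on one another, so they do not settle whether the replicate numbers pair the libraries. With the replicate block 7 pseudogenes were called in place of 8, and GAPDHP1 had a log2 fold change of -1.36 (adjusted p = 0.093 from edgeR). At the depth of the 27 pseudogenes under 1 CPM, none was called.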
